A study of Rattus norvegicus with 6 samples.

Results

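The genes described here are 8 genes of the integrated stress response: Asns, Ddit3, Trib3, Eif4ebp1, Cebpg, Phgdh, Psat1 and Bcat1. They were taken by name, as all probe sets whose array annotation gives exactly 1 gene, that gene being 1 of the 8. The rule found 16 probe sets for the 8 genes, of 8740 probe sets on the array and 4736 genes with a probe set of their own. Transcripts were measured in cardiac fibroblasts put into primary culture from the ventricles of Sprague-Dawley rats aged 1 to 2 days. The 6 samples were 3 cultures given water (control) and 3 given pertussis toxin (PTX) over 24 h, at a dose that the labels do not state. This toxin of Bordetella pertussis ADP-ribosylates the alpha subunits of Gi and Go proteins, which cuts their link to G protein-coupled receptors. The genes were chosen with results of this same comparison known, so their differences between PTX and control are given as a description and support no conclusion. Whether replicates came from separate isolations of cells is not stated, so the p-values rest on a spread between samples that may be technical.

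The integrated stress response is the pathway by which kinases that sense amino acid shortage, misfolded protein in the endoplasmic reticulum, double-stranded RNA or haem deficiency phosphorylate the initiation factor eIF2. General translation then slows, while the messenger of the transcription factor ATF4 is translated more. ATF4, often paired with a C/EBP protein, turns on genes of amino acid synthesis and transport, as well as CHOP, the factor encoded by Ddit3.

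Upstream sequences are shown for Asns, Ddit3 and Trib3, the 3 genes with the most negative change on their brightest probe set, since these genes are textbook targets of ATF4 and were lower together. Each run is the 250 bases before the annotated transcript start, 5′ to 3′ on the gene's own strand, from RefSeq on the rat build GRCr8. Capitals mark a match to TGATGNAA, the core of the C/EBP-ATF response element, searched on both strands.
Asns (chr4:36769416-36769665, minus strand): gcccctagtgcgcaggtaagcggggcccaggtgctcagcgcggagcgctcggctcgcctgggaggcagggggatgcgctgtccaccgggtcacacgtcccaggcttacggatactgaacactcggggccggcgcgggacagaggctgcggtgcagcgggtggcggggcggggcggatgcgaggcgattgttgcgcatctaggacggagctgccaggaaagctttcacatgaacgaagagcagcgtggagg
Ddit3 (chr7:65001445-65001694, plus strand): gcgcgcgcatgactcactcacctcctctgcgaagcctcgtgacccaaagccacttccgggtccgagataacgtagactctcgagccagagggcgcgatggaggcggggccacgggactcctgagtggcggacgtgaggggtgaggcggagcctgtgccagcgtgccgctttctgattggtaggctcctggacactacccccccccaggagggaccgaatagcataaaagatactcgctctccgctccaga
Trib3 (chr3:161275534-161275783, minus strand): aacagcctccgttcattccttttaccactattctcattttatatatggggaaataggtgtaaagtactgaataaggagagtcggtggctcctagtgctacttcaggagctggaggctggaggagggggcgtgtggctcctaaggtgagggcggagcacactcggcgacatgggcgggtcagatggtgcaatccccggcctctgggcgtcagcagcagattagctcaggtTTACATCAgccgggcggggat
The only match in these 3 sequences lay in Trib3, at 21 to 14 bases before the annotated start, where the gene strand reads TTACATCA and the opposite strand TGATGTAA. Of the 8 genes, 7 had an entry in the RefSeq table, all but Eif4ebp1, and 1 of these 7 held a match. Among all 27457 upstream sequences of the same length, 3.27% held one. A match is a description of letters, not of a bound site, and the absence of one says only that these letters are not in this window.

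The signals are linear intensities of Affymetrix probe sets, with array medians from 63.1 to 68.85 and a precision limited by the number of arrays. Log2 changes are differences of mean log2(signal + 16) between PTX and control, so that changes of low signals come out too small. Probe sets under the 40th percentile of mean log2 signal were left out of the test, which left 5244 probe sets; 15 of the 16 probe sets of these genes passed this filter. A signal shows no transcript amount relative to that of another probe set, and in a bulk culture fewer cells of a type cannot be told apart from less RNA per cell.

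Control replicate 1 was the array least like the rest, with a Pearson correlation of 0.952 to 0.960 with each of them across probe sets, against 0.978 to 0.985 among the other 5. Every change of the 8 genes is therefore also given without it. Over the 5244 tested probe sets the median log2 change was -0.02, or -0.01 without that array. The median was -0.10 over the 2960 tested probe sets whose names do not begin with rc_, and 0.13 over the 2284 whose names do. Of the tested probe sets of these 8 genes, 7 are named rc_.

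Signals of most of the 8 genes were lower with PTX than in the controls. Asns, which makes asparagine, and Ddit3, the gene of CHOP, were 1.88-fold and 1.78-fold lower, and Trib3 and the serine synthesis gene Phgdh were 1.68-fold and 1.58-fold lower on their brightest probe sets (3 arrays a group). Eif4ebp1 and Psat1 followed with 1.45-fold and 1.43-fold, Bcat1 had 1.17-fold, and the signals of Cebpg overlapped between the groups. These folds are on the scale of signal + 16. With all 6 arrays 0 of the 15 tested probe sets passed limma's test at an adjusted p under 0.05. Of all tested probe sets 0.0763% passed in either direction and 0% as lower. Without control replicate 1, 6 of the 15 passed, all lower with PTX, against 0.343% of all in that direction and 2.21% in either.

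Ddit3 and Trib3, which are both induced by ATF4, had lower signals with PTX. Ddit3 encodes CHOP, a C/EBP family factor that promotes cell death when stress lasts. Its probe set, U30186_at, had signals of 1220.1, 1518.7 and 1285.4 in control replicates 1, 2 and 3, and of 793.0, 715.2 and 725.4 in the PTX replicates. All 3 PTX arrays lay below all 3 control arrays, and the controls were the more spread. The means were 1341 ± 157 and 745 ± 42.3 (SD, n = 3 each), 1.78-fold lower with PTX, a log2 change of -0.83 ± 0.14 (SE). Without control replicate 1 the change was -0.90.

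Trib3 encodes a pseudokinase that is induced by ATF4 and CHOP and restrains both ATF4 and the kinase Akt. Its brighter probe set, rc_H31287_g_at, had 797.7, 703.2 and 719.3 in the controls and 486.8, 442.9 and 377.4 with PTX. The groups did not overlap, and the log2 change was -0.75 ± 0.15 (SE), or -0.69 without control replicate 1. The dimmer one, rc_H31287_at, had 175.2, 52.0 and 76.8 in the controls and 66.6, 34.3 and 29.9 with PTX. There the groups overlapped, since PTX replicate 1 lay above control replicate 2, and control replicate 1 was far above the other 5 arrays. Its log2 change was -0.89 ± 0.41 (SE) with all arrays and -0.46 without control replicate 1, so that array carried much of the size on the dimmer probe set and little of it on the brighter one.

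Cebpg encodes a C/EBP protein that pairs with ATF4 at its target genes. Its only probe set, X64403_at, had 35.8, 41.5 and 49.0 in the controls and 40.1, 45.9 and 44.0 with PTX. The groups overlapped, and the log2 change was 0.04 ± 0.23 (SE), or -0.04 without control replicate 1. The signal lay at the 44.0th percentile of all probe sets, close to the filter, and its SE was larger than that of Ddit3.

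Among the enzymes of amino acid synthesis, Asns had the most negative change on a brightest probe set of any of the 8 genes. Asns encodes asparagine synthetase, which makes asparagine from aspartate and glutamine and is a classical target of ATF4. Its only probe set, U07201_at, had 428.7, 458.4 and 395.1 in the controls and 229.4, 200.1 and 229.0 with PTX. The groups were clearly apart, with the highest PTX array well below the lowest control array. The means were 427 ± 31.7 and 219.5 ± 16.8 (SD, n = 3 each), 1.88-fold lower with PTX, a log2 change of -0.91 ± 0.14 (SE). Leaving out control replicate 1 did not move it from -0.91.

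Phgdh encodes phosphoglycerate dehydrogenase, the first enzyme of serine synthesis from a glycolytic intermediate. Of its 3 probe sets, X97772_g_at had 1198.2, 954.7 and 1219.2 in the controls and 677.4, 735.1 and 688.2 with PTX. X97772_at, from the same sequence record, had 951.9, 703.1 and 835.4 in the controls and 520.7, 485.6 and 493.4 with PTX. On both, the PTX arrays lay close together and below every control array. The log2 changes were -0.66 ± 0.14 and -0.70 ± 0.15 (SE), or -0.61 and -0.60 without control replicate 1.

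The remaining Phgdh probe set, rc_AI008677_s_at, was dim, with 84.9, 127.0 and 38.0 in the controls and 20.9, 26.0 and 23.1 with PTX. Its groups did not overlap, and its log2 change of -1.23 ± 0.36 (SE) was the most negative of the 15 tested probe sets, but its control arrays were far apart. Without control replicate 1 it was -1.16. With a pseudocount of 64 in place of 16 it was -0.71, and with a pseudocount of 1 it was -1.64. The size of this change thus depended on the pseudocount, which at 64 lay above all 3 PTX signals. X97772_at and X97772_g_at had -0.66 and -0.63 with a pseudocount of 64.

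Psat1 encodes phosphoserine aminotransferase, the enzyme that follows Phgdh in serine synthesis. Its brightest probe set, rc_AI230228_at, had 421.1, 508.8 and 443.3 in the controls and 265.7, 323.1 and 360.4 with PTX. The groups did not overlap, and the log2 change was -0.52 ± 0.16 (SE), or -0.57 without control replicate 1. A second bright one, rc_AI102868_g_at, had 203.3, 586.3 and 500.2 in the controls and 166.6, 256.8 and 304.0 with PTX. Control replicate 1 was low there and lay among the PTX arrays, so the groups overlapped; the change was -0.70 ± 0.39 (SE) with it and -1.15 ± 0.21 without it.

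The other probe sets of Psat1 were dim. rc_AI102868_at had 75.9, 79.6 and 67.7 in the controls and 18.9, 62.8 and 29.9 with PTX, a log2 change of -0.85 ± 0.32 (SE), or -0.83 without control replicate 1, with groups that did not overlap. rc_AA850568_at, the probe set left out by the filter, had 22.0, 4.6 and 4.8 in the controls and 8.2, 6.6 and 9.6 with PTX. With all arrays it gave no clear order of the groups, which overlapped, and its log2 change was -0.07. Without control replicate 1 the change was 0.22, with every PTX array above both remaining controls, at signals far under the filter. All 3 tested Psat1 probe sets thus had negative changes.

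Bcat1 encodes the cytosolic branched-chain aminotransferase, which acts on leucine, isoleucine and valine. Its probe set, U35774_at, had 134.8, 159.2 and 175.2 in the controls and 133.4, 130.1 and 127.3 with PTX. The groups did not overlap, but control replicate 1 lay just above PTX replicate 1. The log2 change was -0.23 ± 0.16 (SE), or -0.32 without control replicate 1, the smallest of the enzyme genes on their brightest probe sets.

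Eif4ebp1 encodes 4E-BP1, a repressor that binds the cap-binding factor eIF4E and is itself a target of ATF4. Its probe set U05014_g_at had 5721.7, 4960.6 and 4032.5 in the controls and 3420.9, 3425.3 and 3221.9 with PTX, and U05014_at had 4733.1, 4371.2 and 3633.1 in the controls and 2965.8, 3034.5 and 2883.3 with PTX. On both, every PTX array lay below every control array, and the controls were far more spread than the PTX arrays. The log2 changes were -0.53 ± 0.15 and -0.51 ± 0.13 (SE), or -0.41 and -0.43 without control replicate 1. A separate probe set, rc_AI178828_i_at, had 799.9, 1170.3 and 995.5 in the controls and 976.2, 740.1 and 973.9 with PTX. Its groups overlapped and its log2 change was -0.13 ± 0.19 (SE), or -0.27 without control replicate 1, so the probe sets of Eif4ebp1 disagree in size.

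**Figure D1:**
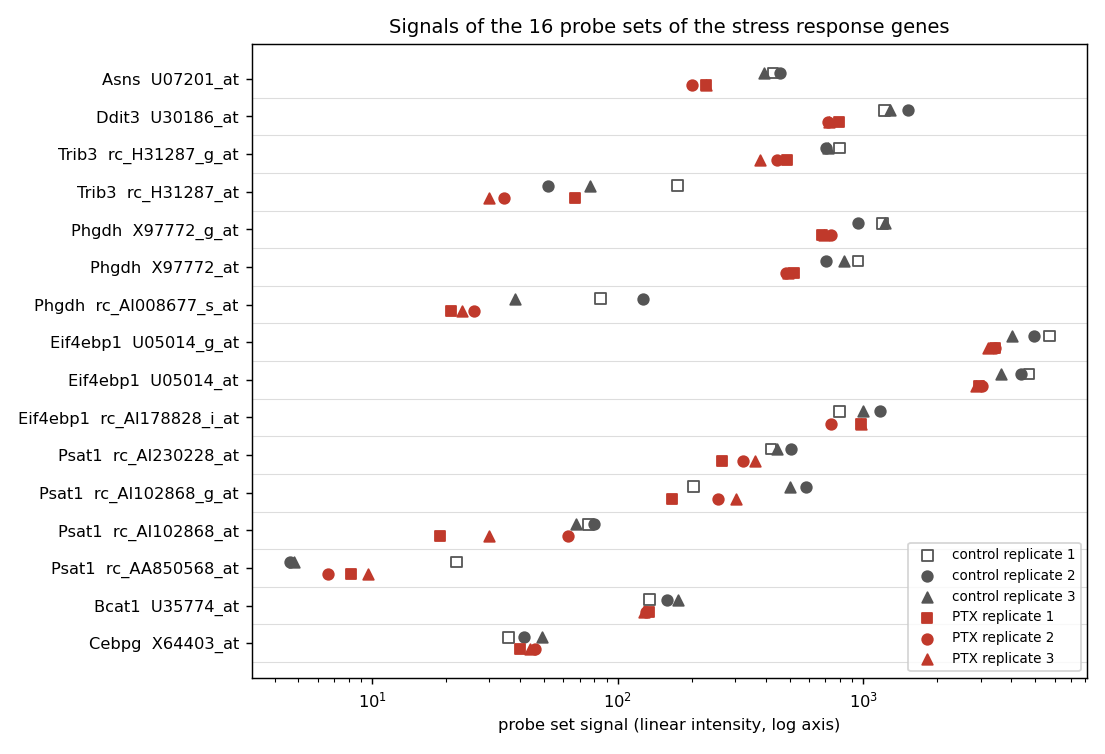
Signals of each of the 16 probe sets on every array (linear intensity on a log axis), with controls in grey above PTX in red and control replicate 1 as open squares. On the probe sets of Asns, Ddit3 and the brighter one of Trib3 all PTX arrays lie left of all control arrays, whereas those of Cebpg mix.

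On the brightest probe set of each gene, the order of the log2 changes from the most negative was Asns (-0.91), Ddit3 (-0.83), Trib3 (-0.75), Phgdh (-0.66), Eif4ebp1 (-0.53), Psat1 (-0.52), Bcat1 (-0.23) and Cebpg (0.04). From Asns to Psat1 each neighbour differed from the one before by 0.01 to 0.13, less than the larger SE of the pair. The order of neighbours is thus not resolved. Genes further apart, such as Asns and Psat1, were not compared in this way. The steps from Psat1 to Bcat1 (0.29) and from Bcat1 to Cebpg (0.27) were larger than either gene's SE. This does not resolve their order either, since no difference between genes was tested.

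Of the 15 tested probe sets 14 had a negative log2 change, where 52.9% of all tested probe sets did, and the median was -0.70. All PTX arrays lay below all controls for 11 of the 15, where 10.6% of all tested probe sets showed this. With limma's test adjusted over all 5244 probe sets by the Benjamini-Hochberg method, 0 of the 15 passed a threshold of 0.05. Of all tested probe sets 0.0763% passed in either direction and 0% as lower. Their adjusted p lay between 0.0876 for Asns and 0.954 for Cebpg, and 10 of the 15 had an unadjusted p under 0.05 in the lower direction, as had 4.61% of all. Since this comparison was used to choose the genes, these counts describe them and nothing is read from them.

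Without control replicate 1 the values of the 15 had a median of -0.60 and 15 of 15 were negative, against 52.3% of all tested probe sets. PTX lay below the 2 remaining controls for 13 of the 15, against 15.8% of all. In that fit 6 of the 15 passed the limma test, in the lower direction, as did 0.343% of all tested probe sets, of which 2.21% passed in either direction. They were those of Asns (adjusted p = 0.0103) and Ddit3 (0.00594), the brighter one of Trib3 (0.0275), X97772_at (0.0337) and X97772_g_at (0.0377) of Phgdh, and rc_AI102868_g_at of Psat1 (0.0233). The brightest probe set of Psat1 did not pass (adjusted p = 0.0943), nor did U05014_at (0.0805) and U05014_g_at (0.0978) of Eif4ebp1. The calls of Asns, Ddit3, Trib3 and Phgdh came with changes that moved by at most 0.10 when that array was left out, whereas that of Psat1 came with a change that grew from -0.70 to -1.15.

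**Figure D2:**
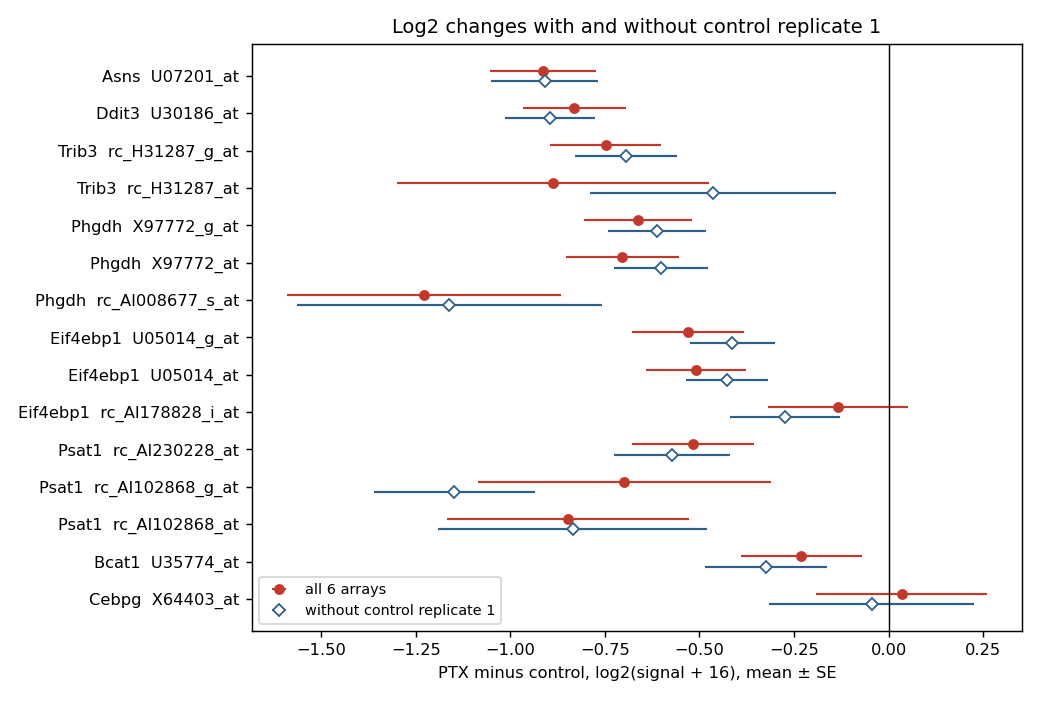
Log2 change between PTX and control (log2(signal + 16), mean ± limma's SE) of the 15 tested probe sets, with all 6 arrays (filled circles) and without control replicate 1 (open diamonds). Asns, Ddit3 and the bright probe sets of Trib3 and Phgdh hardly move, while the dim Trib3 probe set goes from -0.89 to -0.46 and rc_AI102868_g_at of Psat1 from -0.70 to -1.15.

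Counted from the most negative log2 change among the 5244 tested probe sets, that of Asns was in place 22 (19 without control replicate 1), that of Ddit3 in place 34 (20) and the brighter one of Trib3 in place 52 (67). The brightest probe set of Phgdh was in place 79 (103), that of Eif4ebp1 in place 166 (287) and that of Psat1 in place 177 (126). That of Bcat1 was in place 1137 (486) and that of Cebpg in place 2981 (2353), inside the bulk of all probe sets. These places describe genes that were chosen on the same comparison.

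**Figure D3:**
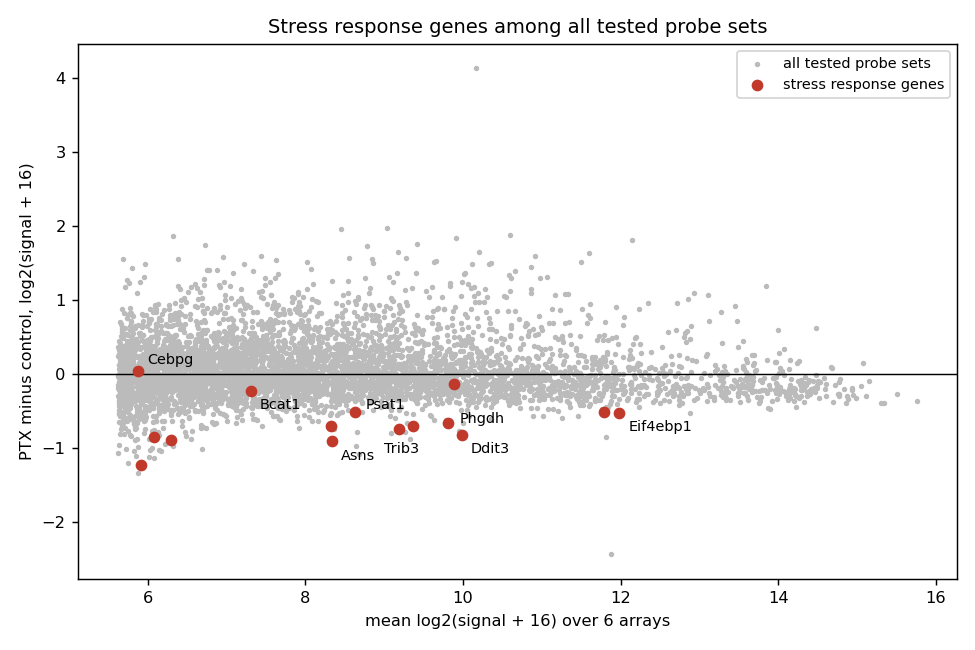
Log2 change against mean log2(signal + 16) for all 5244 tested probe sets (grey), with the 15 of the stress response genes in red and the brightest probe set of each gene named. Most red points lie along the lower edge of the cloud at their signal, while those of Cebpg, Bcat1 and rc_AI178828_i_at of Eif4ebp1 lie within it.

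Profiles over the 6 arrays were compared among the chosen genes and the tested probe sets that name exactly 1 gene. There the closest to that of Asns was that of Ddit3. Likeness was measured as the root mean square difference of log2 values centred on each probe set's mean, over 6 arrays, and it was 0.093 between these 2. The brighter probe set of Trib3 was 0.174 from Asns and 0.167 from Ddit3. X97772_at of Phgdh was 0.199 and 0.227 from them, and X97772_g_at 0.229 and 0.233. U05014_at of Eif4ebp1 had 0.231 and 0.224, and rc_AI230228_at of Psat1 0.253 and 0.228. Among 4366 tested probe sets of other genes, those nearest to Asns were both of Tgfb3 (0.112 and 0.114), and then of Thy1 (0.119), Npw (0.120) and Pak2 (0.137). Those nearest to Ddit3 were of Pak2 (0.105), Mark1 (0.118), Tgfb3 (0.125), Ccnd1 (0.126) and Thy1 (0.129). Tgfb3 encodes a growth factor of the TGF-beta family, Thy1 a surface glycoprotein of fibroblasts, Ccnd1 cyclin D1, Npw a neuropeptide, and Pak2 and Mark1 protein kinases. Their log2 changes lay between -0.61 for Mark1 and -0.97 for Thy1. With all arrays 0 of these 7 probe sets passed the limma test, where 0.0763% of all tested probe sets did and 0% as lower. At an unadjusted p under 0.05 in the lower direction there were 7 of the 7 (4.61% of all). Without control replicate 1, 4 of the 7 passed, both of Tgfb3 and those of Thy1 and Ccnd1, against 0.343% of all that passed as lower. With 3 arrays a group, a small difference of this kind mostly says that a gene was lower with PTX by a like amount. The 7 probe sets were picked on these same arrays for likeness to genes lower with PTX. Their counts in the limma test thus follow from that choice, and nothing is read from them.

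Other genes of the pathway were taken from 6 lists by role. Of 109 listed genes 56 had a probe set of their own, and 80 of their 98 probe sets passed the filter. Atf4 itself was among the genes without one and is not analysed here. Of the 80 probe sets 0 passed the limma test in either direction, with all arrays or without control replicate 1. At an unadjusted p under 0.05, 7 of the 80 (8.75%) were lower and 6 were higher, where 4.61% and 7.97% of all tested probe sets were. The median log2 change of the 80 was -0.13, or -0.06 without control replicate 1. Of the 80, 53 (66.25%) were negative, where 52.9% of all were, and 13 (16.25%) were lower with no overlap, where 10.6% of all were.

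In the list of eIF2 kinases and translation control, 0 of 19 tested probe sets passed (at an unadjusted p under 0.05, 3 were higher and 1 lower), and the median log2 change was -0.18. Those with the smallest p pointed upward. Eif2ak2, encoding the eIF2 kinase PKR that senses double-stranded RNA, had signals of 171 ± 39.5 in the controls and 274 ± 14.3 with PTX (SD, n = 3 each), a log2 change of 0.65. Eif4e, the partner that 4E-BP1 represses, had 0.54, or 0.33 without control replicate 1, and Eif2s3, a subunit of eIF2, had 0.36. Eif2ak3, the kinase PERK of the endoplasmic reticulum, had -0.24 on its brighter probe set, which was -0.02 without control replicate 1. Ppp1r15a, the phosphatase subunit GADD34 induced by ATF4 and CHOP, had -0.18 on its brighter and -0.39 on its dimmer one. These last 2 genes were chosen after their values were seen.

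Among stress transcription factors 0 of 19 tested probe sets passed, also at an unadjusted p under 0.05, with a median of -0.14. Nupr1, a chromatin-bound stress protein, had 1415 ± 247 and 1110 ± 42.7, a log2 change of -0.33, with -0.39 for Fos and -0.85 for Jdp2, a dim probe set with overlapping groups. These were -0.20, -0.26 and -0.52 when control replicate 1 was left out. Atf3, a factor induced by ATF4, had -0.38 with overlapping groups, or -0.21 without that array. The brighter probe set of Cebpb, a C/EBP partner of ATF4, had -0.00 with overlapping groups, and 0.15 without that array, with all PTX arrays above both controls. Atf3 and Cebpb were chosen after their values were seen.

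In the list of other ATF4 and CHOP targets, 0 of 18 tested probe sets passed and 14 were negative (52.9% of all tested probe sets were), with a median of -0.17, or -0.31 without control replicate 1. Gdf15, a secreted stress cytokine, had 189.5 ± 37.2 and 119 ± 28.5, a log2 change of -0.61 with overlapping groups, or -0.76 with no overlap without control replicate 1. Vars1, a valyl-tRNA synthetase, had -0.48, and Gadd45a, a growth arrest gene, had -0.38 on its brightest probe set, each with groups that did not overlap. At an unadjusted p under 0.05, 4 of the 18 were lower (4.61% of all) and 0 higher (7.97% of all).

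Amino acid enzymes other than the chosen ones had a median of -0.01 over 20 tested probe sets, of which 0 passed (at an unadjusted p under 0.05, 2 were higher and 2 lower). Bcat2, the mitochondrial counterpart of Bcat1, had 346 ± 64.9 and 214 ± 19.8, a log2 change of -0.64 with groups that did not overlap, next to -0.23 for Bcat1; the difference between the genes was not tested. Oat, which makes a precursor of proline and arginine, had -0.22, and Got1, an aspartate aminotransferase, -0.17, or -0.05 without control replicate 1. The serine, glycine and one-carbon list had only 1 tested probe set, that of Mthfd1, with -0.00, so the step after Psat1 was not analysed here. Of 3 tested probe sets in the list of aminoacyl-tRNA synthetases, which does not hold Vars1, 0 passed (1 higher at an unadjusted p under 0.05, that of Kars1). Kars1 had 0.39, Tars1 -0.05 and Farsa -0.00. With control replicate 1 left out they had 0.26, -0.24 and 0.29, and the median of the list went from -0.00 to 0.26.

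**Figure D4:**
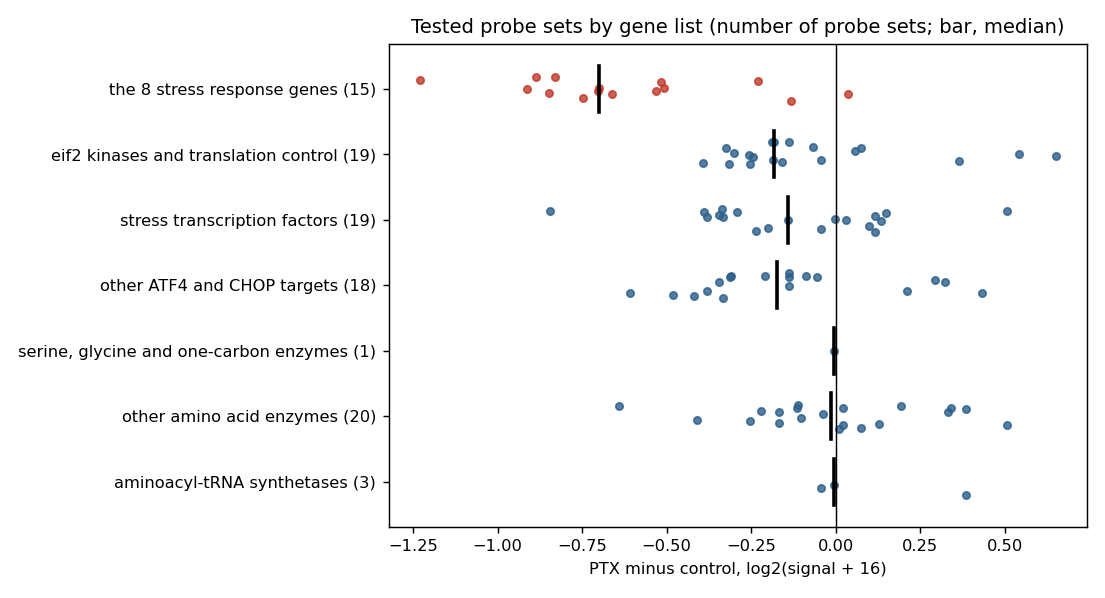
Log2 changes of the tested probe sets of the 8 stress response genes (red) and of 6 lists of other pathway genes (blue), with a bar at each median and the number of probe sets in brackets. The red points have a median of -0.70, as genes chosen on this comparison, and the medians of the lists lie between -0.18 and -0.00.

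Markers of the labelled cell type were present and those of another were bright. All 12 fibroblast markers had a signal of at least 238.3 on every array, led by Col3a1, with 20222 ± 1932 and 17300.5 ± 1486, and Dcn. Among 14 cardiomyocyte markers with a probe set, 11 were within the top 5% by mean signal, led by Myl2 and Myh7, and 1 fell under the filter. The summed signal of these 14 was 269235 to 349107 in the controls and 234980 to 262703 with PTX, without overlap, and the highest control value was that of control replicate 1. Myl2 alone overlapped between the groups (-0.27, or -0.04 without that array). Of 25 tested cardiomyocyte probe sets 19 were negative (52.9% of all tested probe sets were), with changes from -1.09 to 1.02. Lower with no overlap were 8 of the 25 (10.6% of all), and 1 was higher with no overlap. The summed signal of the 12 fibroblast markers was 84676 to 101085 and 88898 to 93119. That of 10 macrophage and leukocyte markers, led by Lyz2 and Fcgr2b, was 3540 to 3580 in the controls and 4288 to 5430 with PTX, with 4 of the 10 under the filter. Without Lyz2 and Fcgr2b the other 8 summed to 726 to 1086.5 and 689 to 789, and 3 of the 9 tested probe sets of the 10 genes were negative, with a median of 0.15. The 4 endothelial markers, led by Kdr and Flt1, summed to at most 232 on any array, and the 4 smooth muscle markers, led by Acta2 and Tagln, to 10296 to 15474 in the controls and 13455 to 14407 with PTX. No marker was at 0. The part of cardiomyocyte and macrophage transcripts in the changes of the 8 genes was not tested.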

How the data were processed

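Total RNA of 3 control and 3 PTX cultures was labelled and hybridised to 1-colour Affymetrix arrays, per the labels' protocols. Per the submitters' processing notes the authors used GCOS, with no version, target value or present calls stated. Deposited were linear intensities, 1 per probe set, with nearly equal trimmed means (493 to 495), so they were used without further scaling. Of 8740 probe sets, 7006 have 1 gene symbol; 6985 of these were updated through the RefSeq table of GRCr8. Signals were analysed as log2(signal + 16), tested above the 40th percentile with limma 3.58.1 in R 4.3.3 (lmFit, eBayes with an intensity trend), two-sided, adjusted over all tested probe sets. The procedure was tested on simulated data. Where an array was left out, the same 5244 probe sets were kept. The genes, lists, tests and alternatives were chosen with earlier results of these data known.

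Named are all probe sets of the 8 genes, up to 3 genes per pathway list with the smallest p on their brightest probe set, the 5 profiles nearest to Asns and Ddit3, and the 2 brightest markers of each cell type; others are marked as chosen after their values were seen. The alternatives were other pseudocounts, filters, scalings, variance models, array weights, the replicate number as a block, and each array left out in turn.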

Additional observations from a re-analysis of the deposited data

How the results depend on the processing

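With all 6 arrays 4 probe sets passed the limma test, all higher with PTX. The count was 2 with a pseudocount of 1 or with quantile normalization, 7 with a pseudocount of 64, 9 with robust variances, 81 with array quality weights (15 of them lower), and 0 with eBayes without a trend (615 at an unadjusted p under 0.05). Over the 6 fits that each leave out an array it was 0 to 116: 116 without control replicate 1, 29 without control replicate 3, 3 without control replicate 2 and 0 without PTX replicate 1, 2 or 3 (360, 375 and 376 at an unadjusted p under 0.05). The cause was not tested. Under all 17 alternatives 0 probe sets of the other pathway genes passed.

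With the replicate number as a block 0 probe sets passed (552 at an unadjusted p under 0.05), of the 8 genes and of the other pathway genes too. Of the 15 tested probe sets of the 8 genes, 12 had an unadjusted p under 0.05 with the block and 10 without it. Over all tested probe sets that count was 552 with the block and 660 without it. The same-numbered arrays of the groups did not deviate together (correlations of -0.093, -0.105 and -0.008 across tested probe sets). Differently numbered arrays had correlations of like size, so these values cannot decide whether the numbers pair the samples, which the labels do not state. Nothing about pairs is read from the block result.

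Probe sets of the 8 genes passed under 2 alternatives: 6 of 15 without control replicate 1, and 4 of 15 with array quality weights, of Asns, Ddit3, Trib3 and Phgdh. Their smallest adjusted p over the alternatives lay between 0.00591 and 0.625. Of the 17 alternatives 5 (both filters, the block and both other eBayes settings) cannot alter a log2 change. In the other 12, 190 of 192 recomputed changes of the 16 probe sets moved by less than the spread between replicates. The other 2 were Asns (-0.79) and rc_AI008677_s_at of Phgdh (-0.71) with a pseudocount of 64. The spread was the SD within groups, pooled over both. Leaving out 1 of 3 arrays cannot move a change by more than that SD. The fits that leave out an array thus could not count as moved, and their part of the 190 shows no stability. It holds rc_AI102868_g_at of Psat1, which went from -0.70 to -1.15 without control replicate 1. Among the 190, 2 changed sign, those of Cebpg and of the untested Psat1 probe set without control replicate 1. Over the fits that each leave out an array, the change of Asns lay between -0.97 and -0.85. Over all settings those of Ddit3 lay between -0.92 and -0.74. Signals near those of Cebpg and the dim probe sets of Trib3, Phgdh and Psat1 limit what can be measured there.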
